A study of Mus musculus with 6 samples.

Results

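The kinesin genes of the mouse genome were taken as every gene whose symbol is *Kif* followed by a number, with or without a letter from a to c. Kinesins with other symbols, such as *Cenpe* and *Kifc1*, were left out by this rule. Of the 17418 genes in the table of unique molecular identifier (UMI) counts, 37 matched. By their known roles they were grouped into 11 that work in cell division, 16 that carry cargo or shape microtubules in interphase cells and neurites (called transport kinesins here), 6 linked to the cilium and 4 with other or unclear roles. The counts come from InDrop single-cell RNA-Seq of the cortex of 6 mice at postnatal day 5 (P5), 3 wild type (WT, strain FVB.129P2-Pde6b+ Tyrc-ch/AntJ) and 3 *Fmr1*-knock out (*Fmr1*-KO, on FVB.129P2-Pde6b+ Tyrc-ch Fmr1tm1Cgr/J, which lacks the RNA-binding protein FMRP in every cell). WT 1, *Fmr1*-KO 1 and *Fmr1*-KO 2 were collected with V2 barcoding beads, and WT 2, WT 3 and *Fmr1*-KO 3 with V3.8 beads. Mice of both sexes were used, no mouse was treated, and the sex of each mouse was not used here.

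Kinesins are motor proteins that turn ATP hydrolysis into steps along microtubules or into the loss of subunits from microtubule ends. In a dividing cell some of them push spindle poles apart, move chromosomes and build the midzone where the cell is cut. In a neuron, which has left the cell cycle, others carry vesicles, mitochondria and RNA granules out along axons and dendrites. The study's Ganglionic cells are inhibitory precursors of the ganglionic eminence, many of them in division. Its Excitatory neurons are of a postmitotic type, though the authors' annotation put 251 of the 2160 cells in the G2M phase. The contrast of both subtypes was chosen to set the first kind of motor against the second.

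Promoters of genes transcribed in late G2 and mitosis often hold a cell cycle genes homology region (TTTGAA) close to the start of transcription, with CCAAT boxes upstream of it. RefSeq promoter sequences (GRCm38.p6, 250 bases before to 50 after the start) were at hand for 10 of the 11 division kinesins and 12 of the 16 transport kinesins. TTTGAA on either strand occurred in 9 of the 10 division promoters and 1 of the 12 transport promoters, and in 20.2% of all 27025 promoters of the table. CCAAT on either strand occurred in 6 of 10, 3 of 12 and 41.1%, and both motifs together in 6 of 10, 0 of 12 and 7.97%. Within 25 bases of the start, a window chosen after the positions were seen, TTTGAA lay in 7 of the 10 division promoters, 0 of the 12 transport promoters and 3.10% of all promoters. The 2 motifs do not overlap in their letters. A match describes the sequence and does not show that a factor binds it. Shown 5′ to 3′ on the gene's strand, from 60 bases before to 30 after the start, are 6 division promoters with TTTGAA near the start and, to compare, 1 transport promoter with CCAAT alone and 1 with neither. Capitals mark TTTGAA or its reverse complement TTCAAA, and CCAAT or its reverse complement ATTGG.
*Kif11* (chr19:37376322-37376411, plus strand): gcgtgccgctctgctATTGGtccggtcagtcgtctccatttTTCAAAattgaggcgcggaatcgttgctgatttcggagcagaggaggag
*Kif22* (chr7:127042391-127042480, minus strand): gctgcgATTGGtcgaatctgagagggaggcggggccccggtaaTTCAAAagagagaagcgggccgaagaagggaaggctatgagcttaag
*Kif18b* (chr11:102925095-102925184, minus strand): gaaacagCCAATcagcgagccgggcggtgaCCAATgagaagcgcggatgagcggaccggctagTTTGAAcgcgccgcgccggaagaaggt
*Kif15* (chr9:122951021-122951110, plus strand): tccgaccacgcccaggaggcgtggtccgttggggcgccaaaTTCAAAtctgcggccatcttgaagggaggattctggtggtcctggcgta
*Kif23* (chr9:61946770-61946859, minus strand): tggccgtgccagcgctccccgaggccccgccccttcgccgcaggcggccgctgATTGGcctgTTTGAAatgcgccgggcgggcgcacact
*Kif4* (chrX:100626005-100626094, plus strand): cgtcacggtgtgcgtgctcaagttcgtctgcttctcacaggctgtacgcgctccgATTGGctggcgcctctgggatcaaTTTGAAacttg
*Kif3a* (chr11:53567309-53567398, plus strand): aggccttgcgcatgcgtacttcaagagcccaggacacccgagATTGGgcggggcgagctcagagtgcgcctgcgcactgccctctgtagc
*Kif5c* (chr2:49619226-49619315, plus strand): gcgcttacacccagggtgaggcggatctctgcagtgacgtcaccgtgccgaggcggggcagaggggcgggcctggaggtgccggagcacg

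Before the kinesins, the labels of the cells were checked. The summed level of *Nrgn*, *Lpl*, *Slc17a6*, *Neurod6* and *Neurod2* was 2791 to 5412 CPM, the UMIs of a gene per 1000000 UMIs of a sum, over the 6 mice in Excitatory neurons and 19.5 to 161 CPM in Ganglionic cells. In Interneurons these genes summed to 106 to 446 CPM. Interneuron markers (*Gad1*, *Gad2*, *Htr3a* and *Dlx1*) summed to 1513 to 1949 CPM in Interneurons, 498 to 1212 CPM in Ganglionic cells and 92.3 to 660 CPM in Excitatory neurons. A list of 18 division genes without any kinesin summed to 6363 to 8256 CPM in Ganglionic cells, 99.9 to 717 CPM in Excitatory neurons and 131 to 361 CPM in Interneurons. The authors' annotation put 441 of 682 Ganglionic cells, 251 of 2160 Excitatory cells and 18 of 1109 Interneurons in the G2M phase. Astrocyte markers summed to 639 to 1060 CPM in Ganglionic cells against 78.7 to 432 CPM in Excitatory neurons, and oligodendrocyte lineage markers to 267 to 881 CPM against 73.9 to 341 CPM. Microglia markers summed to 0 to 23.6 CPM in Ganglionic cells and 3.03 to 231 CPM in Excitatory neurons, endothelial markers to 6.72 to 43.8 CPM and 19.9 to 123 CPM. The part of these other markers in the results was not tested. *Fmr1* itself stood at 68.4, 74.1 and 72.5 CPM over the cells of WT 1, 2 and 3 and at 17.2, 19.9 and 16.1 CPM over those of *Fmr1*-KO 1, 2 and 3.

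Depth differed between the mice and subtypes. After the cells annotated as doublets were left out, 17280 cells remained in 17 libraries, with 7909181 to 20629134 UMIs per mouse. Ganglionic cells held 243006 to 708105 UMIs per mouse and Excitatory neurons 542175 to 2312682. The median Excitatory neuron had 976 to 1041.5 UMIs in the V2 mice and 2005 to 8588 UMIs in the V3.8 mice. Of 15463 cell barcodes, 2231 occurred in more than 1 library, and 743 of the 2842 Ganglionic and Excitatory cells carried such a barcode. Most pairs of cells that shared one came from the same mouse (87.6% of 3775), and 3084 of these 3307 pairs within a mouse had the same subtype. Whether such a pair is the same cell in more than 1 library was not tested. The splits by division transcripts below were not rerun without the cells that carry a shared barcode. With these cells left out, 11 division kinesins were still called higher and 8 transport kinesins lower in the main comparison, where the counts with all cells were 11 and 9. Of all 11681 genes in that fit, 2314 were called higher and 3222 lower. Fewer UMIs of a gene in a subtype can mean fewer cells that express it or less RNA in each, and summed counts do not tell these apart.

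The main comparison asked how the kinesins of each role differ between Ganglionic cells and Excitatory neurons. All 11 division kinesins were higher in Ganglionic cells, by 6.81-fold for *Kif11* to 90.7-fold for *Kif2c*, and 9 of the 15 transport kinesins tested were lower, by 1.68-fold for *Kif2a* to 10.7-fold for *Kif5c*. Of all 12075 genes tested, 20.4% were called higher and 31.3% lower, 51.7% in all. The median log2 difference was 4.87 over the division kinesins, -1.64 over the transport kinesins and -0.24 over all genes. A gene counted as called at a Benjamini-Hochberg adjusted p (FDR) under 0.01 and a level at least 15% higher in one group than in the other, in edgeR's quasi-likelihood test on UMIs summed per mouse and subtype with the mouse as a block. Of the 37 kinesins, 31 had the 30 UMIs over the 12 sums that the test required. All 11 division kinesins and 15 of 16 transport kinesins passed, and a gene can pass through the subtype where it is high. The authors clustered the subtypes on the expression of these same cells, so the test sets the size of a difference against the spread between mice and is no independent test of the subtypes.

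**Figure D1:**
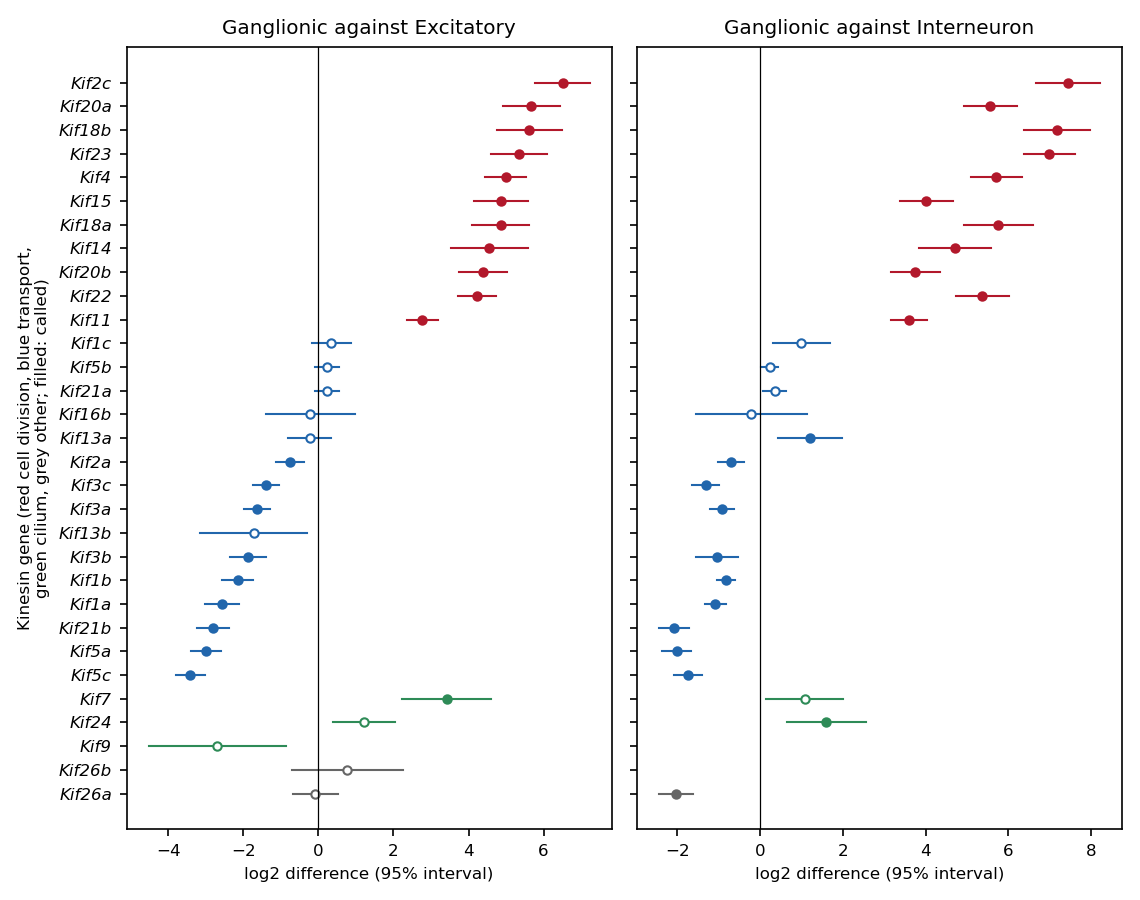
Log2 differences of the tested kinesins with 95% intervals, Ganglionic cells against Excitatory neurons (left) and against Interneurons (right); filled points were called. All 11 division kinesins lie above 0 on both sides, and 9 transport kinesins lie below 0 with a call on each side.

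The summed level of the division kinesins was 1536 ± 205 CPM in Ganglionic cells and 85.1 ± 42.8 CPM in Excitatory neurons (mean ± SD, n = 6 mice). Within a mouse the ratio ran from 9.79-fold in *Fmr1*-KO 1 to 33.9-fold in WT 3, and its mean was 19.9-fold (4.31 ± 0.64, SD, on the log2 scale). The sum was higher in Ganglionic cells of every mouse, with no overlap between the subtypes. The summed transport kinesins stood at 1725 ± 145 CPM in Ganglionic cells and 5375 ± 1728 CPM in Excitatory neurons, 2.99-fold lower on average and 2.16-fold to 4.42-fold lower within a mouse. Within the V2 mice the mean log2 ratio was 4.04 for division and -1.93 for transport, and within the V3.8 mice 4.58 and -1.24.

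Levels of single genes are given mouse by mouse in the order WT 1, 2 and 3 and then *Fmr1*-KO 1, 2 and 3. Among the motors of the spindle, *Kif11*, the kinesin-5 that slides antiparallel microtubules to part the poles, stood at 388, 325, 298, 347, 349 and 278 CPM in Ganglionic cells and 25.4, 52.6, 27.2, 59.0, 68.9 and 43.4 CPM in Excitatory neurons. That gave the smallest log2 difference among the division kinesins, 2.77 ± 0.20 (SE, FDR 8.0e-11), and the groups did not overlap. *Kif2c*, a kinesin-13 that takes microtubules apart at centromeres, was at 168, 136, 71.4, 165, 192 and 115 CPM in Ganglionic cells and 0.793, 1.74, 0, 1.84, 0 and 3.21 CPM in Excitatory neurons. Its log2 difference was the largest of the 31 tested kinesins, 6.50 ± 0.35 (SE, FDR 1.4e-12). The Excitatory neurons of *Fmr1*-KO 2 and WT 3 held no UMI of it. *Kif22*, a chromokinesin of the kinesin-10 family that pushes chromosome arms, had 181, 165, 107, 102, 98.9 and 151 CPM in Ganglionic cells and 10.3, 5.78, 4.32, 12.9, 4.52 and 4.01 CPM in Excitatory neurons. Its difference was 4.23 ± 0.24 (SE, FDR 4.1e-12), with a gap between the subtypes in every pair of mice. *Kif4*, the other chromokinesin, which also works at the midzone, stood at 161, 115, 111, 132, 141 and 134 CPM in Ganglionic cells and 5.55, 2.89, 3.46, 7.38, 3.39 and 0.803 CPM in Excitatory neurons. The log2 difference of *Kif4* came to 4.99 ± 0.26 (SE, FDR 1.3e-12).

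The paired kinesin-8 genes *Kif18a* and *Kif18b*, which dampen chromosome movement and shorten astral microtubules, were both higher in Ganglionic cells. *Kif18a* was at 85.1, 45.3, 55.5, 92.6, 94.6 and 56.1 CPM in Ganglionic cells and 1.59, 2.31, 1.30, 7.38, 2.26 and 0 CPM in Excitatory neurons. For this gene the log2 difference was 4.85 ± 0.36 (SE, FDR 1.8e-10). *Kif18b* had 155, 115, 115, 76.8, 158 and 105 CPM in Ganglionic cells and 2.38, 4.05, 0, 9.22, 0 and 0.803 CPM in Excitatory neurons. Here the log2 difference was 5.62 ± 0.41 (SE, FDR 1.4e-10), and for both genes every Ganglionic value lay above every Excitatory value. *Kif15*, the kinesin-12 that can hold the spindle bipolar alongside *Kif11*, had 67.4 to 124 CPM in Ganglionic cells and 0 to 6.36 CPM in Excitatory neurons (log2 difference 4.87 ± 0.35, FDR 8.7e-11).

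The motors of the midzone and of cytokinesis showed the same direction. *Kif23*, the motor subunit of centralspindlin, stood at 262, 148, 175, 240, 201 and 195 CPM in Ganglionic cells and 9.51, 2.31, 0, 22.1, 2.26 and 1.61 CPM in Excitatory neurons. The log2 difference of *Kif23* was 5.34 ± 0.36 (SE, FDR 3.4e-11). Its Excitatory levels were highest in WT 1 and *Fmr1*-KO 1, 2 of the V2 mice. *Kif20a*, which brings the chromosomal passenger complex to the midzone, was at 123, 152, 123, 140, 171 and 117 CPM in Ganglionic cells and 2.38, 2.89, 0, 9.22, 4.52 and 0 CPM in Excitatory neurons. The estimate for *Kif20a* was 5.67 ± 0.36 (SE, FDR 1.7e-11). The last bases of *Kif20a* overlap *Cdc23* on the other strand, and since the strand of counting was not given in the sources used here, their reads may not be told apart. *Kif20b*, a relative of it that acts late in cytokinesis, had 105, 94.6, 91.2, 114, 145 and 117 CPM in Ganglionic cells and 3.17, 3.47, 0.432, 14.8, 7.91 and 5.62 CPM in Excitatory neurons. The estimate for *Kif20b* was 4.38 ± 0.31 (SE, FDR 8.8e-11), so both members of the pair stood clear of the Excitatory values. *Kif14*, needed for abscission, had 39.4 to 73.4 CPM in Ganglionic cells and 0 to 9.22 CPM in Excitatory neurons (log2 difference 4.56 ± 0.50, FDR 6.6e-08). Beside these 11 of 11 without overlap, 17.4% of all genes tested had every Ganglionic value above every Excitatory value.

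**Figure D2:**
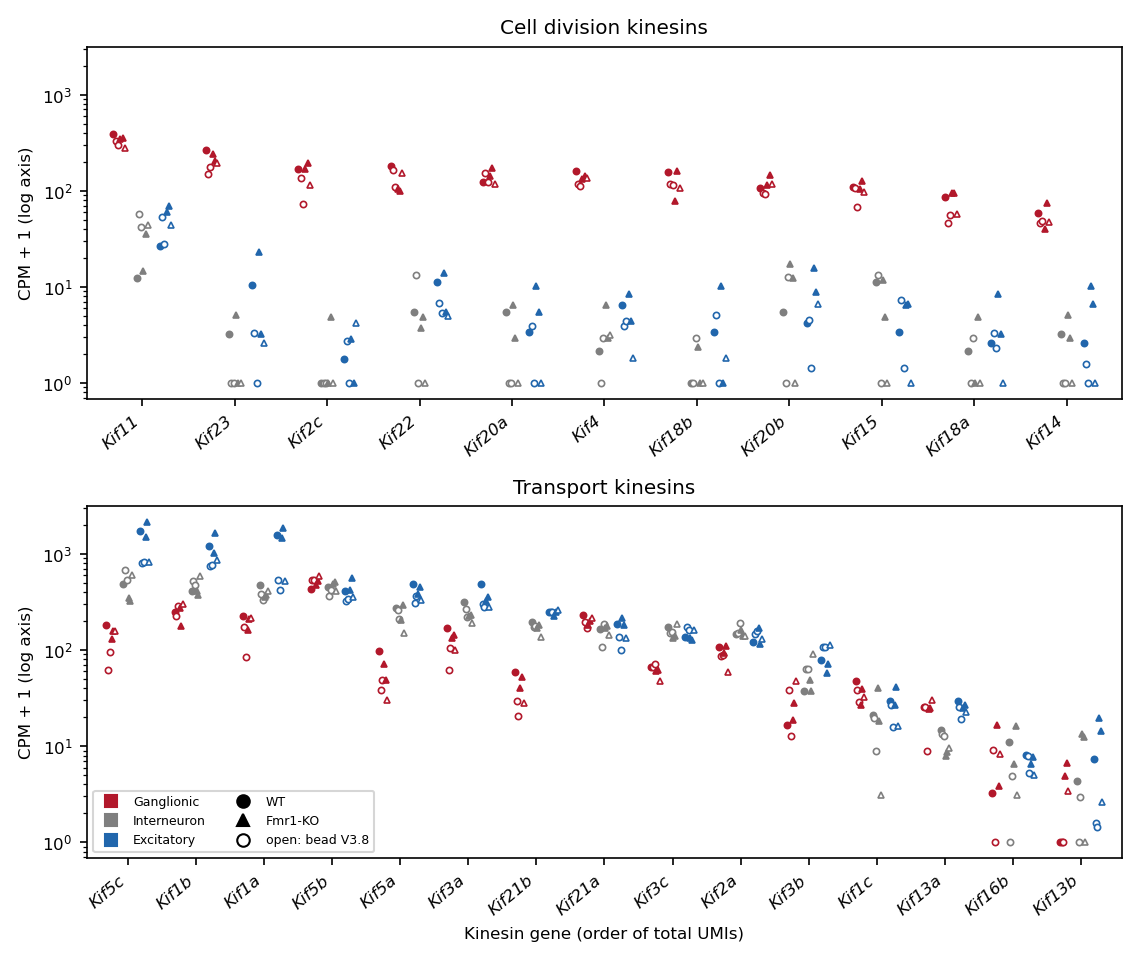
CPM plus 1 (log axis) of each tested division and transport kinesin in Ganglionic cells, Interneurons and Excitatory neurons, 1 point per mouse (circles WT, triangles Fmr1-KO, filled V2 beads, open V3.8 beads). All 11 division kinesins have every Ganglionic point above the Excitatory points, while 6 transport kinesins (Kif5b, Kif21a, Kif1c, Kif13a, Kif13b and Kif16b) overlap between both subtypes.

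The conventional kinesins, whose heavy chains *Kif5a*, *Kif5b* and *Kif5c* carry vesicles and mitochondria, did not change as a family. *Kif5c*, enriched in neurons, stood at 181, 61.7, 95.2, 130, 158 and 159 CPM in Ganglionic cells and 1740, 805, 823, 1509, 2129 and 824 CPM in Excitatory neurons. It had the most negative log2 difference of the 31 tested kinesins, -3.41 ± 0.19 (SE, FDR 2.1e-12). *Kif5a*, the other neuronal heavy chain, was at 96.3, 37.0, 47.6, 70.9, 48.0 and 29.3 CPM in Ganglionic cells and 487, 307, 366, 382, 455 and 332 CPM in Excitatory neurons. The log2 difference of *Kif5a* was -2.99 ± 0.19 (SE, FDR 1.7e-11). *Kif5b*, which is made in most tissues, had 430, 535, 532, 473, 523 and 588 CPM in Ganglionic cells and 413, 320, 336, 419, 559 and 354 CPM in Excitatory neurons. These values overlapped, and the log2 difference was 0.23 ± 0.15 (FDR 0.18) with a 95% interval from -0.08 to 0.55, so *Kif5b* was not called. That interval does not reach the differences of *Kif5a* and *Kif5c*, whose intervals ran from -3.39 to -2.59 and from -3.80 to -3.02. In the V3.8 mice alone, *Kif5b* did not overlap, at 532 to 588 CPM in Ganglionic cells and 320 to 354 CPM in Excitatory neurons. Its mean log2 ratio was 0.71 there and 0.04 in the V2 mice.

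The kinesin-3 genes *Kif1a* and *Kif1b*, which carry synaptic vesicle precursors and other cargo along axons, were both lower in Ganglionic cells. *Kif1a* stood at 224, 173, 83.3, 160, 209 and 215 CPM in Ganglionic cells and 1571, 532, 419, 1446, 1865 and 520 CPM in Excitatory neurons. The log2 difference of *Kif1a* was -2.57 ± 0.22 (SE, FDR 1.6e-09). *Kif1b* was at 246, 226, 286, 276, 175 and 302 CPM in Ganglionic cells and 1214, 745, 759, 1027, 1639 and 855 CPM in Excitatory neurons. For *Kif1b* it was -2.15 ± 0.20 (SE, FDR 4.6e-09). Their relative *Kif1c*, found in many tissues, had 47.0, 37.0, 27.8, 25.6, 38.1 and 31.7 CPM in Ganglionic cells and 28.5, 26.0, 14.7, 25.8, 40.7 and 15.3 CPM in Excitatory neurons. The subtypes overlapped in *Kif1c*, with a log2 difference of 0.34 ± 0.25 (FDR 0.24) and no call. In the V3.8 mice alone *Kif1c* did not overlap, with a mean log2 ratio of 0.81, against 0.20 in the V2 mice.

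The kinesin-2 genes *Kif3a*, *Kif3b* and *Kif3c* encode the heterodimeric motor of axonal cargo and of intraflagellar transport. *Kif3a* stood at 170, 61.7, 103, 132, 144 and 100 CPM in Ganglionic cells and 484, 299, 282, 323, 359 and 278 CPM in Excitatory neurons. The difference for *Kif3a* was -1.64 ± 0.17 (SE, FDR 1.9e-08). *Kif3b* was at 15.7, 37.0, 11.9, 17.7, 26.8 and 46.3 CPM in Ganglionic cells and 77.7, 106, 107, 57.2, 71.2 and 112 CPM in Excitatory neurons. The difference for *Kif3b* was -1.88 ± 0.23 (SE, FDR 3.0e-07). *Kif3c* had 65.0, 65.8, 71.4, 59.1, 60.7 and 46.3 CPM in Ganglionic cells and 137, 172, 162, 133, 125 and 159 CPM in Excitatory neurons. The difference for *Kif3c* was -1.39 ± 0.17 (SE, FDR 3.8e-07). All 3 were called lower and none overlapped.

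The kinesin-4 relatives *Kif21a* and *Kif21b*, which act on microtubule growth, had different calls. *Kif21b* stood at 58.2, 28.8, 19.8, 39.4, 50.8 and 26.8 CPM in Ganglionic cells and 247, 249, 249, 225, 250 and 258 CPM in Excitatory neurons. Its log2 difference was -2.80 ± 0.21 (SE, FDR 1.6e-10), without overlap. *Kif21a* was at 231, 193, 171, 183, 199 and 215 CPM in Ganglionic cells and 186, 135, 98.6, 212, 181 and 132 CPM in Excitatory neurons. These values overlapped and *Kif21a* was not called (log2 difference 0.22 ± 0.15, FDR 0.21, 95% interval -0.10 to 0.55). In the V3.8 mice alone *Kif21a* did not overlap, with a mean log2 ratio of 0.67, against 0.08 in the V2 mice.

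The kinesin-13 genes, which depolymerise microtubules, also had different calls, with *Kif2c* higher as above. *Kif2a*, which acts in spindles and in growing axons, had 108, 86.4, 87.3, 92.6, 109 and 58.5 CPM in Ganglionic cells and 120, 147, 157, 168, 114 and 131 CPM in Excitatory neurons. The log2 difference of *Kif2a* was -0.75 ± 0.18 (SE, FDR 0.0011), and this call was lost without WT 3 (-0.62, FDR 0.011), without *Fmr1*-KO 3 (-0.60, FDR 0.010) and without the shared barcodes (-0.65, FDR 0.015). *Kif2a* overlaps *Dimt1* on the other strand at its end. *Kif2b* had 2 UMIs in the whole series, both in Astrocytes_1, and none in either subtype.

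The endosome motors *Kif13a*, *Kif13b* and *Kif16b* were not called. *Kif13a* stood at 24.6, 24.7, 7.93, 23.6, 24.0 and 29.3 CPM in Ganglionic cells and 28.5, 24.9, 18.2, 24.0, 26.0 and 21.7 CPM in Excitatory neurons. *Kif13b* had 0, 0, 0, 2, 4 and 1 UMIs in the Ganglionic cells and 8, 1, 1, 10, 12 and 2 UMIs in the Excitatory neurons of WT 1, 2 and 3 and *Fmr1*-KO 1, 2 and 3, so that most of its Excitatory UMIs came from the V2 mice (log2 difference -1.72 ± 0.68, FDR 0.033). *Kif17*, a dendritic motor, was too low for the test, with no UMI in Ganglionic cells. Of the 15 transport kinesins tested, 9 had every Ganglionic value below every Excitatory value, and so did 21.6% of all genes tested.

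Excitatory levels of several transport kinesins followed the bead version. *Kif1a* stood at 1446 to 1865 CPM in the V2 mice and 419 to 532 CPM in the V3.8 mice, and *Kif5c* at 1509 to 2129 CPM and 805 to 824 CPM. The summed transport kinesins reached 5987 to 7837 CPM in Excitatory neurons of the V2 mice and 3797 to 4001 CPM in those of the V3.8 mice. With every cell thinned to 700 UMIs, the ranges were 6126 to 7133 CPM and 3759 to 4541 CPM. Other members went the other way, with *Kif3b* at 57.2 to 77.7 CPM in the V2 and 106 to 112 CPM in the V3.8 Excitatory neurons and *Kif3c* at 125 to 137 CPM and 159 to 172 CPM. In Interneurons *Kif5c* was also lower with V2 beads, at 321 to 481 CPM against 535 to 672 CPM. The transport sums were 1702 to 1899 CPM (V2) and 1543 to 1856 CPM (V3.8) in Ganglionic cells, and 2763 to 3174 CPM and 2979 to 3148 CPM in Interneurons. Bead version, batch and depth changed together and cannot be told apart.

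The cilium kinesins were low in both subtypes. *Kif7*, a regulator of Hedgehog signalling at the tip of the primary cilium, was at 24.6, 8.23, 23.8, 11.8, 15.5 and 12.2 CPM in Ganglionic cells and 2.38, 2.31, 1.30, 0, 1.13 and 0 CPM in Excitatory neurons. It was called higher in Ganglionic cells, with a log2 difference of 3.41 ± 0.57 (SE, FDR 2.4e-05), and its last bases overlap *Ticrr* on the other strand. *Kif24*, which removes microtubules at centrioles, had 14.6 to 22.6 CPM in Ganglionic cells and 1.73 to 12.9 CPM in Excitatory neurons and missed the threshold (log2 difference 1.21 ± 0.40, FDR 0.012). *Kif9*, a motor of motile cilia, had 2 UMIs in all Ganglionic cells and 39 UMIs in Excitatory neurons and missed it as well (log2 difference -2.70 ± 0.88, FDR 0.011). *Kif6*, *Kif19a* and *Kif27* were too low for the test. Of the kinesins with other roles, *Kif26a* and *Kif26b*, which lack ATPase activity, were not called (log2 difference -0.08 ± 0.29, FDR 0.81 and log2 difference 0.77 ± 0.71, FDR 0.36), and *Kif12* had 2 UMIs in the series.

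Interneurons, which share the inhibitory lineage of the Ganglionic cells but have left the cell cycle, were set beside both subtypes. Against Interneurons, all 11 division kinesins were higher in Ganglionic cells (median log2 difference 5.56, against -0.02 over all genes), where 18.3% of 10815 genes were called higher. The differences ran from 3.60 ± 0.21 (SE) for *Kif11* to 7.44 ± 0.38 for *Kif2c*, and *Kif2c* had 2 UMIs in all Interneurons. Of 14 transport kinesins tested, 9 were lower (18.4% of all genes), from -0.70 ± 0.15 for *Kif2a* to -2.08 ± 0.18 for *Kif21b*. *Kif5c* differed by -1.73 ± 0.17 and *Kif1a* by -1.08 ± 0.12 on the log2 scale. *Kif13a* was the 1 transport kinesin called higher (1.21 ± 0.38, FDR 0.0090). Its level was 24.6, 24.7, 7.93, 23.6, 24.0 and 29.3 CPM in the Ganglionic cells and 13.6, 12.4, 11.8, 6.82, 7.65 and 8.50 CPM in the Interneurons of WT 1, 2 and 3 and *Fmr1*-KO 1, 2 and 3, with WT 3 alone overlapping. *Kif24* was called higher (1.60 ± 0.47) and *Kif26a* lower (-2.03 ± 0.20).

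Between Interneurons and Excitatory neurons, edgeR called 0 of the 6 division kinesins tested in either direction (1 at an unadjusted p under 0.05), where 12.9% of 12025 genes were called higher and 17.1% lower. Transport kinesins were lower in Interneurons for 8 of 15, from -0.49 for *Kif3a* to -1.35 for *Kif5c* on the log2 scale. These sizes differed with the bead version. The mean of *Kif5c* was 383 CPM in Interneurons and 1793 CPM in Excitatory neurons of the V2 mice, 4.68-fold apart, and 603 CPM and 817 CPM in the V3.8 mice, 1.36-fold apart. For *Kif1a* the Excitatory mean was 4.07-fold higher with V2 and 1.31-fold higher with V3.8 beads. *Kif7* (2.56) and *Kif26a* (2.22) were higher in Interneurons and *Kif9* (-3.11) was lower. Leaving out WT 1 brought the number of kinesins called from 11 to 7, and that of all genes from 3602 of 12025 to 2804 of 11643. These comparisons share cells with the main one and are given side by side. The summed transport kinesins in Interneurons were 2990 ± 168 CPM (n = 6), between the Ganglionic and the Excitatory sums.

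**Figure D3:**
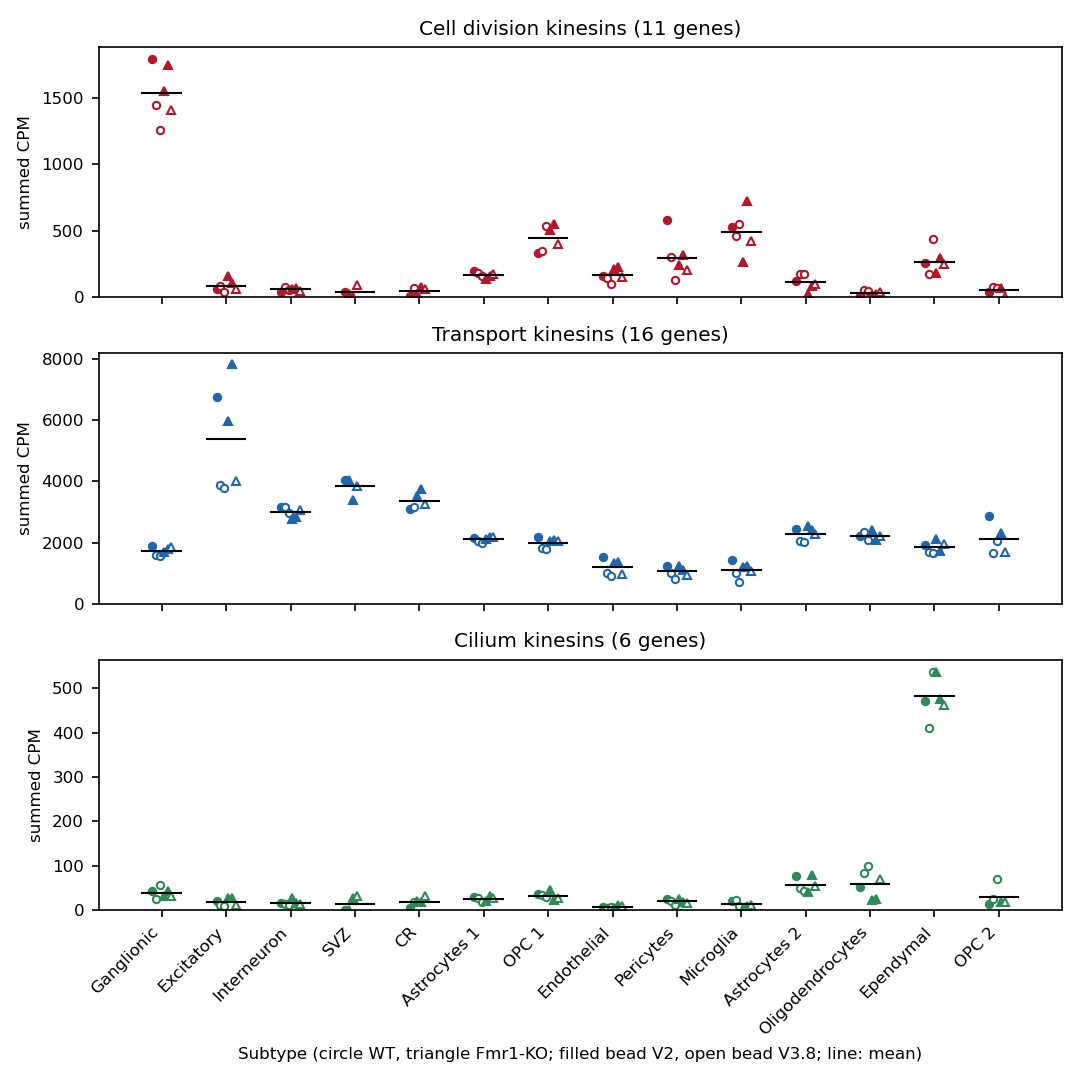
Summed CPM of the division, transport and cilium kinesins in each subtype with at least 4 mice of 10 or more cells, 1 point per mouse (circles WT, triangles Fmr1-KO, filled V2 beads, open V3.8 beads) with the mean as a line. Division kinesins peak in Ganglionic cells at 1262 to 1794 CPM, transport kinesins in Excitatory neurons at 3797 to 7837 CPM and cilium kinesins in Ependymal cells at 412 to 538 CPM.

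Over all subtypes, each role had its own distribution. The summed division kinesins were highest in Ganglionic cells, where no mouse was below 1262 CPM, followed by Microglia (493 ± 152 CPM), OPC_1, the larger group of oligodendrocyte precursors (446 ± 98.6 CPM), Pericytes (297 ± 156 CPM) and Ependymal cells (267 ± 96.9 CPM). Microglia and OPC_1 did not differ beyond their spread. Oligodendrocytes (31.8 ± 18.3 CPM) were at the low end. Each of the 11 division kinesins had its highest mean over mice in Ganglionic cells, for *Kif11* 331 ± 39.3 CPM and next 118 ± 26.7 CPM in OPC_1 (subtypes with at least 4 mice).

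The summed transport kinesins were highest in Excitatory neurons, then in SVZ migrating neurons (3839 ± 308 CPM, n = 4), Cajal Retzius (CR) cells (3357 ± 284 CPM, n = 5) and Interneurons, and lowest among the types with 6 mice in Pericytes (1052 ± 170 CPM). The Excitatory range of 3797 to 7837 CPM overlapped that of SVZ neurons, 3398 to 4054 CPM. Single transport kinesins departed from this order. *Kif5b* had 570 ± 69.4 CPM in Oligodendrocytes, 517 ± 89.6 CPM in Endothelial cells and 513 ± 54.8 CPM in Ganglionic cells (mean ± SD over mice), which overlapped. *Kif1c* was at 203 ± 18.2 CPM in Endothelial cells and 168 ± 11.2 CPM in Astrocytes_1, with ranges that overlapped. *Kif13a* had 104 ± 12.9 CPM in OPC_1, and *Kif21b* had 582 ± 115 CPM in SVZ neurons (n = 4) against 246 ± 11.1 CPM in Excitatory neurons, without overlap.

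The cilium kinesins peaked in Ependymal cells, which carry motile cilia, at 483 ± 48.1 CPM (n = 6), followed by Oligodendrocytes at 58.8 ± 31.1 CPM and Astrocytes_2 at 57.2 ± 16.7 CPM, which did not differ beyond their spread. In Ependymal cells *Kif9* stood at 257 ± 40.5 CPM, *Kif6* at 72.7 ± 25.9 CPM, *Kif27* at 63.0 ± 44.7 CPM and *Kif24* at 56.3 ± 16.1 CPM. *Kif19a*, which limits the length of cilia, had 39.4 ± 29.5 CPM in Oligodendrocytes and 27.6 ± 12.2 CPM in Ependymal cells, which overlapped, and *Kif7* was spread over the glial types.

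**Figure D4:**
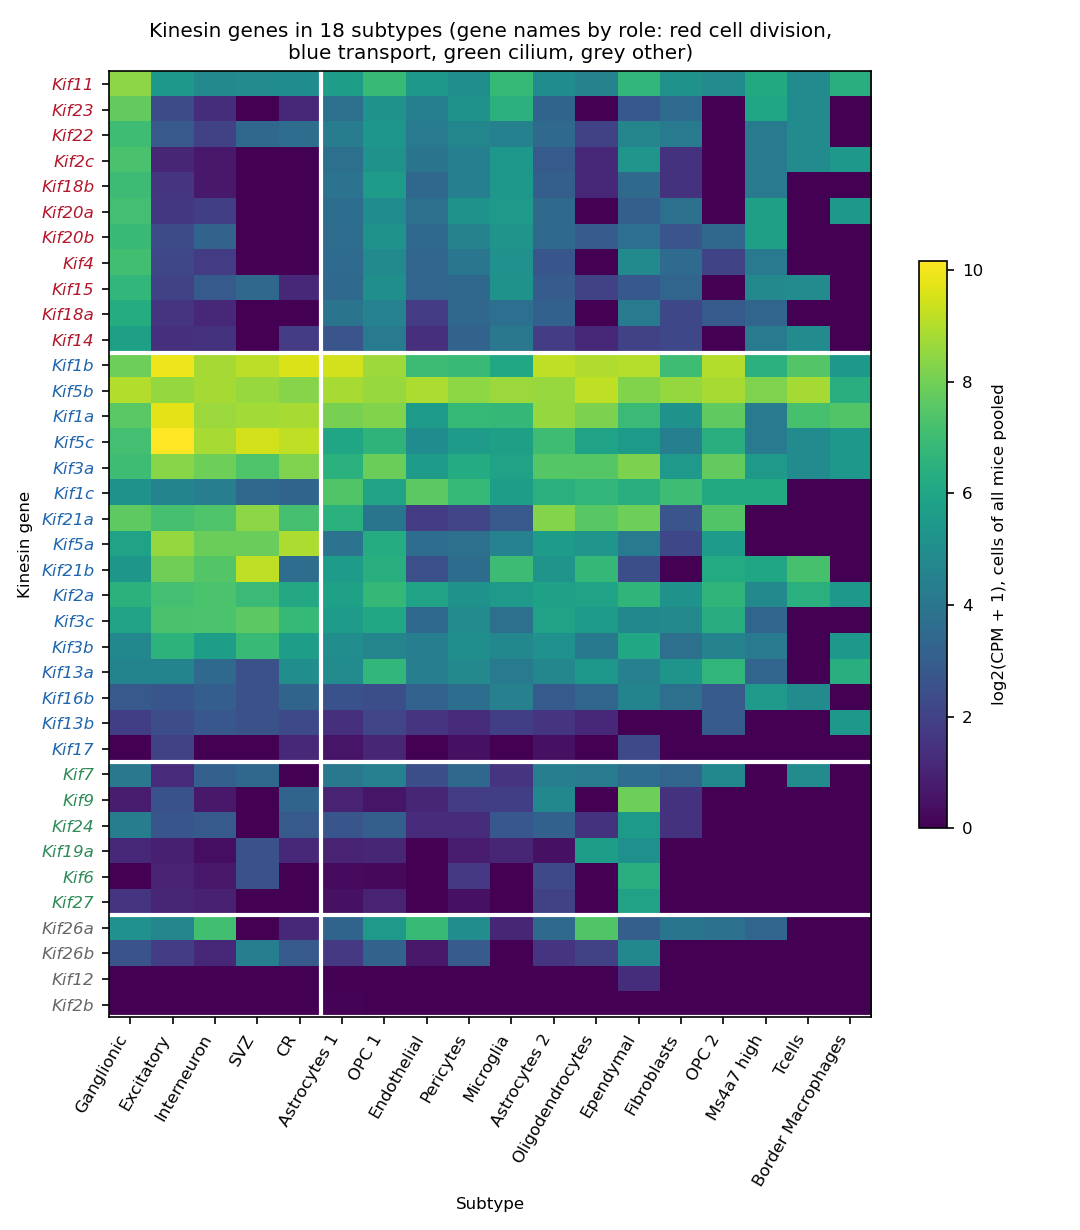
Level of the 37 kinesins in the 18 subtypes, as log2(CPM + 1) over the pooled cells of all mice, with genes grouped by role. The division kinesins are brightest in the Ganglionic column, Kif5c, Kif1a and Kif1b in the neuron columns and Kif9, Kif6 and Kif27 in the Ependymal column.

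To compare cells of 1 subtype with each other, cells with at least 2 UMIs of the 18-gene division list were set against cells with none, within the mouse. The first class is defined by these transcripts and not by the phase of a cell. In Astrocytes_1, 758 of its 1544 cells held 2 or 3 such UMIs, and the authors' annotation put 631 of all 6371 Astrocytes_1 cells in G2M. The summed division kinesins were 741 to 1370 CPM in the class with division transcripts and 9.40 to 79.1 CPM in the class without in OPC_1, 365 to 482 CPM against 18.3 to 45.1 CPM in Astrocytes_1, 589 to 1331 CPM against 18.1 to 67.9 CPM in Microglia, 191 to 411 CPM against 21.1 to 70.3 CPM in Endothelial cells and 758 to 2132 CPM against 9.85 to 36.9 CPM in Pericytes, with no overlap. Calls of single members are not counted as support, since several passed the filter through the class where they are high, and *Kif14*, *Kif20a*, *Kif2c* and *Kif4* had no UMI in the OPC_1 class without. *Kif11*, chosen after the values were seen for its UMIs in both classes, had a mean of 240 CPM against 29.0 CPM in OPC_1, 104 against 16.5 CPM in Astrocytes_1, 210 against 17.0 CPM in Microglia, 71.2 against 17.99 CPM in Endothelial cells and 114 against 8.03 CPM in Pericytes. It was called higher in each, where the share of all genes called higher was 5.99%, 6.22%, 3.56%, 2.56% and 3.20%. In Excitatory neurons, Interneurons and Astrocytes_2, edgeR called none of the 2, 1 and 1 division kinesins tested, with 0.0725%, 0.174% and 0.959% of all genes higher, and at an unadjusted p under 0.05 there were 0, 0 and 1. The summed division kinesins of Astrocytes_2 were still higher with division transcripts in 5 of 5 mice, at 20.9 to 684 CPM against 17.98 to 74.0 CPM. The summed division kinesins were higher in 5 of 6 mice in Excitatory neurons and 3 of 5 in Interneurons. Over pooled cells, the highest genes of the division list in Excitatory neurons were *Cenpf* (84.0 CPM) and *Ube2c* (50.4 CPM), above *Top2a* (18.3 CPM). In Interneurons they stood at 73.4, 56.7 and 18.9 CPM, and in Ganglionic cells at 861, 860 and 1373 CPM. The class with division transcripts can thus rest on other genes in these neurons, and their part in the missing calls was not tested.

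The transport kinesins changed in few of these splits. *Kif1a* was lower in the class with division transcripts of Astrocytes_1 (-0.29 ± 0.05 on the log2 scale, 1 of 15 tested, where 3.44% of all genes were lower and 9.66% called in all), and *Kif1a* (-1.03 ± 0.23), *Kif5a* (-1.97 ± 0.51) and *Kif5c* (-1.11 ± 0.28) were called lower in that of Endothelial cells (3 of 12, 0.973% of all genes). The Endothelial calls rest on few UMIs, 15 against 43 for *Kif5a* and 61 against 91 for *Kif5c*, and on levels that overlapped between the classes, 6.01 to 59.4 CPM against 7.63 to 196 CPM for *Kif5c*. The median depth there was 5605 UMIs against 2128, and the level of free RNA in the droplets was not measured here, so these calls are not read as a change within the cells. The summed transport kinesins were lower in the class with division transcripts in 5 of 6 mice in each of Astrocytes_1, OPC_1, Endothelial cells, Microglia and Pericytes, with ranges that overlapped. In the other 6 subtypes edgeR called none, where 0.0997% of all genes were called in Excitatory neurons, 0.279% in Interneurons, 1.34% in Astrocytes_2, 4.76% in Microglia, 5.04% in Pericytes and 7.65% in OPC_1, and at an unadjusted p under 0.05 there were 1 of 14, 1 of 12, 3 of 13, 1 of 12, 1 of 10 and 6 of 13 in the same order. *Kif24* was the 1 cilium kinesin called, higher with division transcripts in OPC_1 (3.67 ± 0.75) and in Astrocytes_1 (1.01 ± 0.27). Cells with division transcripts were deeper, with a median of 3576.5 UMIs against 2195 in OPC_1 and 6754 against 2439.5 in Astrocytes_1. Summed over the 8 subtypes, the 11 division kinesins gave 50 calls with all UMIs, a gene counting once in each subtype where it was called. The share of all genes called higher in these subtypes ran from 0.0725% to 6.22%. With cells thinned to 700 UMIs after the classes were set there were 22 such calls, for which the share of all genes is not given here. As above, these calls are not counted as support. The part of depth was not tested further.

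Among Ganglionic cells only 36 held none of the division list, so cells with at least 4 such UMIs (560 cells) were set against those with fewer (122 cells), a limit chosen after the counts were seen. The class with fewer held 68 UMIs of division kinesins in all, 4 to 16 per mouse, so no count or median of single calls is given for them (2.57% of all genes were called higher), and edgeR called 0 of 13 transport kinesins, of which 1 had an unadjusted p under 0.05. The summed division kinesins were 1499 to 1951 CPM against 99.9 to 363 CPM, and the summed transport kinesins 1596 to 1927 CPM against 1279 to 2742 CPM, which overlapped. Median depth was 3811.5 against 1537 UMIs. Set against Excitatory neurons, the Ganglionic cells with fewer than 4 division UMIs had 9 of 15 transport kinesins lower. Of all 11624 genes in that fit, 2513 were called lower and 746 higher, with a median log2 difference of -0.65. Among the 5 division kinesins left for the test, 0 were called, with log2 differences of -0.24 to 1.37 and edgeR FDR of 0.191 to 0.892. These cells were chosen for few division transcripts, so the absence of division calls follows in part from that choice.

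**Figure D5:**
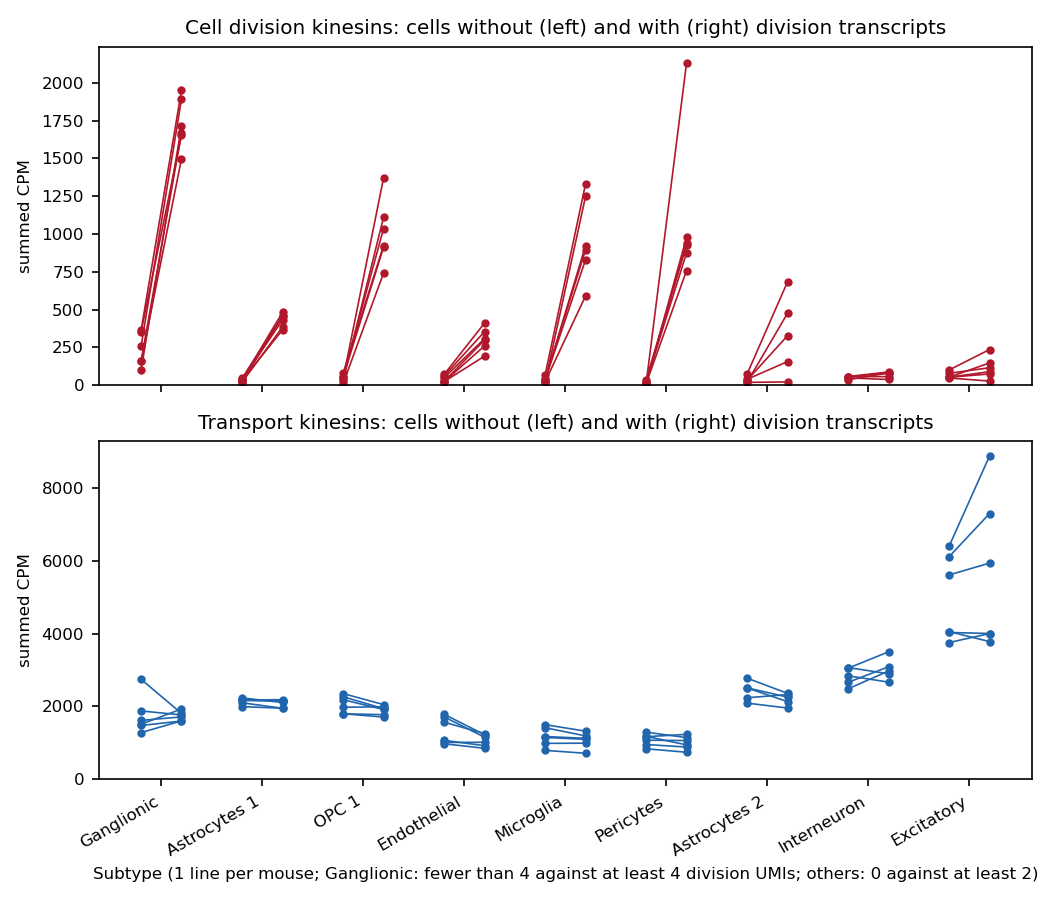
Summed CPM of the division and the transport kinesins in cells without and with division transcripts of 9 subtypes, with 1 line per mouse. Division sums are higher with division transcripts in every mouse in Ganglionic cells, Astrocytes_1, Astrocytes_2, OPC_1, Endothelial cells, Microglia and Pericytes. Transport sums overlap between the classes and are lower with division transcripts in 5 of 6 mice in each of Astrocytes_1, OPC_1, Endothelial cells, Microglia and Pericytes.

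Genes whose products work with kinesins were read from 3 lists, beside 20.4% of all genes called higher, 31.3% lower and a median of -0.24. The lists of partners also hold kinesins whose symbols fall outside the rule used here. These are *Cenpe* and *Kifc1* among the division partners and *Kifc2* and *Kifc3* among the transport partners, so the lists are not separate from the kinesin family. All 12 partners of division motors were higher in Ganglionic cells than in Excitatory neurons (median log2 difference 5.06), led by *Ect2*, the activator of RhoA at the midzone (6.23), *Aurkb*, the kinase of the chromosomal passenger complex (5.60), and the kinetochore motor *Cenpe* (5.21). Of 11 transport partners tested, 9 were lower and 0 higher (median -1.73), led by the minus-end motors *Kifc2* (-5.16) and *Kifc3* (-2.94) and the kinesin light chain *Klc2* (-3.03). *Kifc2* had 7 UMIs in all Ganglionic cells. Of 12 dynein and dynactin genes, which move cargo the other way, 8 were lower and 1 was higher (median -0.83). The intermediate chain *Dync1i1* (-4.38) and the dynactin subunit *Dctn1* (-1.49) were among the lower ones, and *Nde1*, a dynein regulator needed in dividing progenitors, was the higher one (4.51). Against Interneurons, 12 of 12, 0 of 11 and 2 of 12 of these lists were higher and 0, 7 and 7 were lower, beside 18.3% and 18.4% of all genes.

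The genotypes, *Fmr1*-KO and WT, were compared on sums per mouse, with mice and not cells as the replicates, which is unlike a test over single cells. This test called no kinesin in any of 10 cell types, with edgeR and with DESeq2 alike. In Ganglionic cells 19 kinesins were detected in at least 15% of the cells and 0 were called, against 0.0499% of all 4009 genes, which is 2 genes. In Excitatory neurons 0 of 11 were called, against 0% of 3737 genes. The share of all genes called was 0.0208% in Astrocytes_1, 0.0245% in OPC_1 and 0.0423% in Oligodendrocytes, and 0% in the other 5 types. At an unadjusted p under 0.05 stood *Kif5a* in Ganglionic cells (log2 difference -0.66 ± 0.30, edgeR FDR 0.77) and *Kif3a* in Interneurons (-0.40 ± 0.15, edgeR FDR 1.00). *Kif5a* had 96.3, 37.0 and 47.6 CPM in the Ganglionic cells of WT 1, 2 and 3 and 70.9, 48.0 and 29.3 CPM in those of *Fmr1*-KO 1, 2 and 3, and these overlapped. With a filter of 30 UMIs in total instead, 15 to 32 kinesins per type were tested. There edgeR called 0 of them, beside at most 2 of all genes per type, and at most 1 kinesin per type had an unadjusted p under 0.05. The log2 difference of *Kif11* in Ganglionic cells was -0.16 (95% interval -0.47 to 0.16) and that of *Kif5c* in Excitatory neurons 0.06 (95% interval -0.26 to 0.37). The genotype by subtype term, which asks whether the difference of Ganglionic cells and Excitatory neurons depends on the genotype, was called by edgeR for 0 of 31 kinesins and 0% of all genes. At an unadjusted p under 0.05 were 2 kinesins, *Kif14* and *Kif20b*, and 352 of all 12075 genes.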

How the data were processed

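UMI counts of 17418 genes in 18393 cells from 6 mice were analysed. Per the labels and the study's methods, the authors aligned the InDrop reads to mm10 with TopHat 2.0.14, used ESAT to count reads over RefSeq genes, skipping those that mapped to several positions, merged UMIs and removed barcodes under 700 UMIs, erythrocytes, haemoglobin genes and part of the doublets. The counts were deposited without normalization, with the mouse, subtype and cell cycle phase of each cell. The strand of counting and the tool of the phase call are not given in the sources used here.

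Members and gene lists were chosen with earlier results of these data known. The 1113 cells marked as doublets were left out, and UMIs were summed per mouse and subtype. CPM are of these sums. The summed level of the Ganglionic markers is not reported here. Counts are of UMIs near the transcript's end and are not scaled by length, so levels of different genes were not ranked. Sums were tested with edgeR 4.0.16 (quasi-likelihood, TMM, R 4.3.3) for genes with at least 30 UMIs in total and the mouse as a block. Genotype was tested within 10 types with a batch term, on genes detected in 15% or more of the cells. P-values were adjusted by Benjamini-Hochberg over all genes of a fit. SE and 95% intervals follow from the F statistic. Mice are the replicates (3 per genotype). Ratios of sums per mouse had 0.5 CPM added where single genes were compared (5 CPM as an alternative).

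The planned split of Ganglionic cells into at least 2 against 0 division UMIs could not be fitted, since 36 cells held none, and was replaced as described. Values per mouse are given for the 8 division and the 8 transport kinesins with the most UMIs in the main comparison, for sets of close relatives and for members called against their role; partners are named by their 3 largest differences. Promoter positions are from RefSeq on GRCm38.p6. Overlaps with genes on the other strand were read over the last 1000 bases of each kinesin gene, from the GENCODE annotation of GRCm38. On simulated counts for the main comparison (12075 genes), 36% of 200 genes changed by 1 on the log2 scale were recovered and 95% of those changed by 3. For genotype in Ganglionic cells (4009 genes) 70% of those changed by 1 were recovered, and in Excitatory neurons (3737 genes) 94%. Alternatives were other normalizations (DESeq2 1.42.0 size factors and test), filters, thresholds, thinning of cells to 700 or 1500 UMIs, leaving out each mouse, and 4 added after seeing the data: the Ganglionic split at 4 division UMIs, Ganglionic cells under that limit against Excitatory neurons, and shared barcodes left out of the subtype and genotype fits. Replicate numbers were not taken to pair the mice. Deviations of same-numbered mice correlated over 0.1 in 20 of 30 cases, but in 0 of 10 types for every number. In Excitatory neurons the correlations were 0.58, -0.53 and 0.76 for replicates 1, 2 and 3. Same-numbered mice shared a bead version for replicates 1 and 3 and not for replicate 2, and the part of the bead version was not tested. Intervals cover the spread between mice.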

Additional observations from a re-analysis of the deposited data

Results flagged for a closer look

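In 137 sets of values over 4 to 6 mice, the lowest or highest mouse was tested for its distance from the others (Dixon's criterion, 95%), and 6 stood apart (4.38%), where chance flags about 1 in 20. *Kif13a* in the Ganglionic cells of WT 3 was at 7.93 CPM, below 23.6 to 29.3 CPM in the other mice. *Kif18a* in the Excitatory neurons of *Fmr1*-KO 1 was at 7.38 CPM, above 0 to 2.31 CPM. *Kif21b* in the Excitatory neurons of *Fmr1*-KO 1 was at 225 CPM, below 247 to 258 CPM. The log2 ratio of *Kif3a* between Ganglionic cells and Excitatory neurons was -2.27 in WT 2, lower than in the other mice. The summed cilium kinesins stood apart in the Interneurons of *Fmr1*-KO 1 at 25.9 CPM and in the OPC_2 cells of WT 3 at 70.6 CPM.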

How the results depend on the processing

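Leaving out each mouse in turn left 11 division kinesins higher and 8 to 9 transport kinesins lower in Ganglionic cells against Excitatory neurons, and over all settings the transport count ran from 8 to 10. Without 1 mouse, 2281 to 2425 of all genes were called higher and 3248 to 3475 lower, of 11787 to 11910 tested. A filter that asks for counts in every sum (filterByExpr without groups) kept 4801 genes and *Kif11* alone among the division kinesins. So 1 was called, with 1191 of all genes higher. Against Interneurons it left 0 division kinesins, with 857 of 4345 genes higher. Between Interneurons and Excitatory neurons it left 7 kinesins called, with 2406 of 6260 genes called. For the division classes it left 0 of the 50 calls. In Ganglionic cells with fewer than 4 division UMIs, a class chosen for few division transcripts, 0 of the 5 division kinesins left were called. Of all 11624 genes in that fit, 746 were called higher. The sign turned there for *Kif11* (-0.21), *Kif23* (-0.24), *Kif13a* (0.45), *Kif1c* (-0.38), *Kif21a* (-0.10) and *Kif5b* (-0.26). Between Interneurons and Excitatory neurons the 11 calls became 6 with cells thinned to 700 UMIs, 7 at 2-fold and 7 to 11 without 1 mouse. Calls over all genes fell as well, from 3602 of 12025 to 2214 of 9073 with thinning and to 2804 to 3341 without 1 mouse. The share of all genes at 2-fold is not given here. Over the division classes and in the Ganglionic split, members can pass through the class where they are high. The 50 calls over the division classes became 30 with a UMI in 15% of the cells, 22 thinned to 700 UMIs, 27 thinned to 1500 UMIs before classing and 46 to 50 without 1 mouse. The share of all genes called is not given for these settings, so the drops are not read as particular to kinesins. Calls of single division kinesins in the Ganglionic split also varied with the setting and, as above, are not counted. Except for the filter, whose cut in genes shows it, the cause was not tested.

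Uncalled members near 0 changed sign: *Kif16b* (above 0 without WT 1, WT 3 or *Fmr1*-KO 2, and -0.66 to 0.065 without any 1 mouse), *Kif1c* (-0.74 thinned) and *Kif26a* (0.034 by library size alone, above 0 without *Fmr1*-KO 1 or 3 and -0.21 to 0.16 without any 1 mouse, 0.17 without shared barcodes). *Kif2a* lost its call without WT 3 (-0.62), without *Fmr1*-KO 3 (-0.60) and without shared barcodes (-0.65). *Kif24* gained a call with batch in place of the mouse, by library size alone and without a filter (1.24 to 1.34), and *Kif9* with batch in place of the mouse (-2.69) and without *Fmr1*-KO 3 (-3.36). Adding 5 instead of 0.5 CPM moved the mean log2 ratios over mice by more than their SD for *Kif2c* (4.50), *Kif20a* (4.21), *Kif4* (3.98), *Kif15* (3.71), *Kif18a* (3.36), *Kif14* (2.95) and *Kif7* (1.72), all still above 0. The median of all genes was -0.24 with TMM, -0.26 with DESeq2's size factors and -0.11 by library size alone.

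Replacing the mouse block by batch changed none of the 11 and 9 calls of the main comparison, and a block of replicate numbers, which do not pair the mice (correlations -0.53 to 0.76), gave 0 kinesins called between the genotypes. With batch in place of the mouse, 2679 of all 12075 genes were called higher and 4014 lower. Recovery of genotype differences under 1 on the log2 scale was not simulated. The planned Ganglionic split at 0 division UMIs, and its cells without division transcripts against Excitatory neurons, were not run.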

Other observations

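The following pooled levels, over all mice, are a description with no test and are given for subtypes of 65 or more cells. Mice with more cells weigh more in them. *Kif26a*, which lacks ATPase activity, stood at 170 CPM in Oligodendrocytes, 134 CPM in Interneurons and 118 CPM in Endothelial cells, and *Kif26b* at 25.6 CPM in Ependymal cells. *Kif16b*, a motor of early endosomes, was at 23.3 CPM in Ependymal cells (31 UMIs) and 20.5 CPM in Microglia (53 UMIs). *Kif21a* had 342 CPM in SVZ neurons and 314 CPM in Astrocytes_2. *Kif3b* had 116 CPM in SVZ neurons and 68.4 CPM in Ependymal cells, where *Kif3a* had 289 CPM. *Kif17* stayed at or under 3.76 CPM in each of these subtypes.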
